A study of Homo sapiens with 24 samples.

Results

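Most of the 47 genes described here encode proteins that the liver secretes into blood, and the others include their regulators, MTTP and CPS1. They were taken from 60641 gene symbols measured in 24 RNA-seq libraries, by a list of names that was drawn up with earlier results of these data known. The list was chosen partly for the readout: A1CF, A2M and ITIH5 entered it because they differ in A549 knockouts, and the other 44 members are listed by function. The comparisons of the A549 knockouts with A549 wild type are therefore given as a description: calls at the thresholds used elsewhere are counted, but no p-value is given and nothing is supported with them. The study deleted predicted DNA-binding domains (DBDs) of long noncoding RNAs with CRISPR/Cas9 and sequenced RNA from knockout (KO) and wild-type (WT) cells. The cells were A549, a human lung adenocarcinoma line, and HCT116, a human colorectal carcinoma line. A DBD KO of MSTRG.2513.6 and one of MSTRG.4401.1 had been made in either line, and a KO of MSTRG.34636.7 in HCT116. The wild types were WT B for A549 and, for HCT116, WT A and WT B. Each of the 8 groups had 3 libraries. The letters A and B follow the numbering of the libraries in the sample labels, which do not pair a KO with a wild type, do not say whether a KO is a single clone or a pool, and do not say whether the libraries of a group came from separate cultures, so that p-values measure the spread between these libraries, which may be technical. No symbol in the count files carries a name starting with MSTRG (0 of 60641), so the targeted transcripts themselves were not measured here.

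Hepatocytes secrete most plasma proteins, among them fibrinogen and other clotting factors, protease inhibitors of the serpin family, apolipoproteins, albumin, complement components and the inter-alpha-trypsin inhibitor (ITI) heavy chains, which are carried to hyaluronan. Their genes are controlled by a network of transcription factors that bind each other's promoters: the nuclear receptors HNF4A and HNF4G, the FOXA factors, the ONECUT factors and the HNF1 factors. Parts of this network are also used in gut, lung and their tumours. A1CF is an RNA-binding protein of liver and intestine, known as the cofactor of APOBEC1 in the editing of APOB mRNA.

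Promoter sequences are shown for 4 members on which the results turn: 2 fibrinogen chains, AMBP and A1CF. They are bases upstream of the RefSeq start (GRCh38.p14) on the gene's own strand and outside the annotated gene. The AMBP and A1CF windows, of 222 and 202 bases, were cut at the annotated gene and so end before the RefSeq start. Distances below are counted from the RefSeq start. FGA is chr4:154590743-154590992 (minus strand), FGB is chr4:154562730-154562979 (plus strand), AMBP is chr9:114078329-114078550 (minus strand) and A1CF is chr10:50885676-50885877 (minus strand). Capitals mark matches to 3 motifs searched on both strands: GTTAATNAT (HNF1), CAAAGTCC (HNF4) and TGTTTAC or TGTTTGC (FOXA).
FGA: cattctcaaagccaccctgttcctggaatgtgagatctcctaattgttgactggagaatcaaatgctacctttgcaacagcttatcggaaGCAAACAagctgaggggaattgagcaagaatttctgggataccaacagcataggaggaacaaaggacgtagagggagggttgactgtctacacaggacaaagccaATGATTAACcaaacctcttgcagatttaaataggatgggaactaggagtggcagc
FGB: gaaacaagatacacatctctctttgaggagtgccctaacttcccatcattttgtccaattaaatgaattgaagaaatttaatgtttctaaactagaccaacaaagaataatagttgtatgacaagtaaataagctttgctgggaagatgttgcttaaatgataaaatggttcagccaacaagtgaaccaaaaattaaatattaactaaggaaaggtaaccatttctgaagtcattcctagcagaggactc
AMBP: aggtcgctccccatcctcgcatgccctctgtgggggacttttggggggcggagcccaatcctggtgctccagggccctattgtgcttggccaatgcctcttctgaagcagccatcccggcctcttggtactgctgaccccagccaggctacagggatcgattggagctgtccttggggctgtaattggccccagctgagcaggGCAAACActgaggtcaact
A1CF: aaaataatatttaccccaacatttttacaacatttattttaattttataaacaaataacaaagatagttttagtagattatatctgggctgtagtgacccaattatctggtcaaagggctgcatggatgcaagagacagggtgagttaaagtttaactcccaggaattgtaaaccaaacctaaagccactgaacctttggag
The FGA window held an HNF1 match 55 bases and a FOXA match 160 bases before the start, and the AMBP window held a FOXA match 47 bases before it. No match stood in the FGB or A1CF window. RefSeq promoters were matched for 35 of the 47 members, with 48 starts in all. Over the 250 bases before each start, the HNF1 letters were found at 6 of the 48 starts (AFP, ALB, C5, FGA, LIPC and SERPINA4), against 0.723% of 35116 starts of all genes. The FOXA letters were found at 8 of 48, against 6.09% of all starts, and the HNF4 letters at 1 of 48 (AHSG), against 1.02%. No match overlapped another in the members' windows. A match describes letters only.

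Library totals ranged from 25799359 to 102261808 counts, and 3 counts corresponded to 0.0293 to 0.116 CPM (the counts of a gene scaled by the total of its library). Libraries S8 and S9, labelled HCT116 MSTRG.2513.6 KO, stood apart from the third library of that label, S11. Over the 47 members, the mean absolute difference in log2(CPM + 1) from the A549 MSTRG.2513.6 KO mean was 0.13 for S8 and 0.15 for S9, whereas from the HCT116 WT B mean it was 1.09 and 1.10. For S11 these differences were 1.14 and 0.36. From the other HCT116 means S11 differed by 0.30 (MSTRG.34636.7 KO), 0.31 (WT A) and 0.39 (MSTRG.4401.1 KO), so WT B was not the nearest. CPS1 was at 417 and 413 CPM in S8 and S9, within the 403 to 437 CPM of the A549 KO of that name, and at 82.2 CPM in S11. The labels were kept, and each result with these libraries is given with and without them. Of 10 lung markers, 3 (SFTPB, NAPSA and KRT7) reached 1 CPM in A549 WT B, and the lung-defining factor NKX2-1 did not, although it reached 1 CPM in HCT116 WT B. The sum over the list was 2344 to 2445 CPM, mostly KRT7, against 20.5 to 29.0 CPM in HCT116 WT B. Of 10 colon markers, 3 reached 1 CPM in each line, CDH17 and VIL1 among them in A549 WT B and CDX2 and VIL1 in HCT116 WT B. The hepatocyte markers were mixed. ALB did not exceed 1.01 CPM, AFP 0.891 CPM, APOA1 0.250 CPM or TTR 0.0955 CPM in any library, whereas SERPINA1 reached 9.46 CPM (S11). Of 29 hepatic enzyme and surface genes, 9 reached 1 CPM in A549 WT B and 4 in HCT116 WT B. The sum over that list was 93.2 to 117 CPM in A549 WT B and 131 to 134 CPM in HCT116 WT B.

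Expression of the members ranged from 0 counts to 437 CPM (CPS1). A group mean of at least 10 CPM was reached by 10 members: HNF4A, FOXA1, FOXA2, FOXA3, ONECUT2, A1CF, FGL1, C3, C5 and CPS1. For another 20 the highest group mean lay between 1 and 10 CPM, and for 17 it lay below 1 CPM. Of those 17, 15 stayed below 1 CPM in every library: KNG1, SERPINA4, SERPINA6, SERPINC1, APOA1, APOB, APOC3, LIPC, AFP, TTR, AHSG, FETUB, ORM1, ITIH1 and ITIH3. The apolipoprotein genes of lipoprotein particles (APOA1, APOB, APOC3) thus stood near the limit of detection in both lines, and MTTP, which loads lipid onto APOB, did not exceed 1.02 CPM. ITIH1 and APOC3 were detected in 3 and 1 of the 24 libraries. Per kilobase of annotated exon, the highest members in A549 WT B were FOXA2 (14.8 ± 1.11 CPM per kb, SD, n = 3), CPS1 (8.97 ± 0.80), HNF4A (7.11 ± 0.62), C3 (4.71 ± 0.10) and C5 (4.14 ± 0.56). C3 and C5 overlapped in range neither with HNF4A above them nor with FOXA1 (3.09 ± 0.17) below them. In HCT116 WT B the highest were CPS1 (4.67 ± 0.14 CPM per kb) and FOXA3 (3.99 ± 0.38), which did not overlap.

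**Figure D1:**
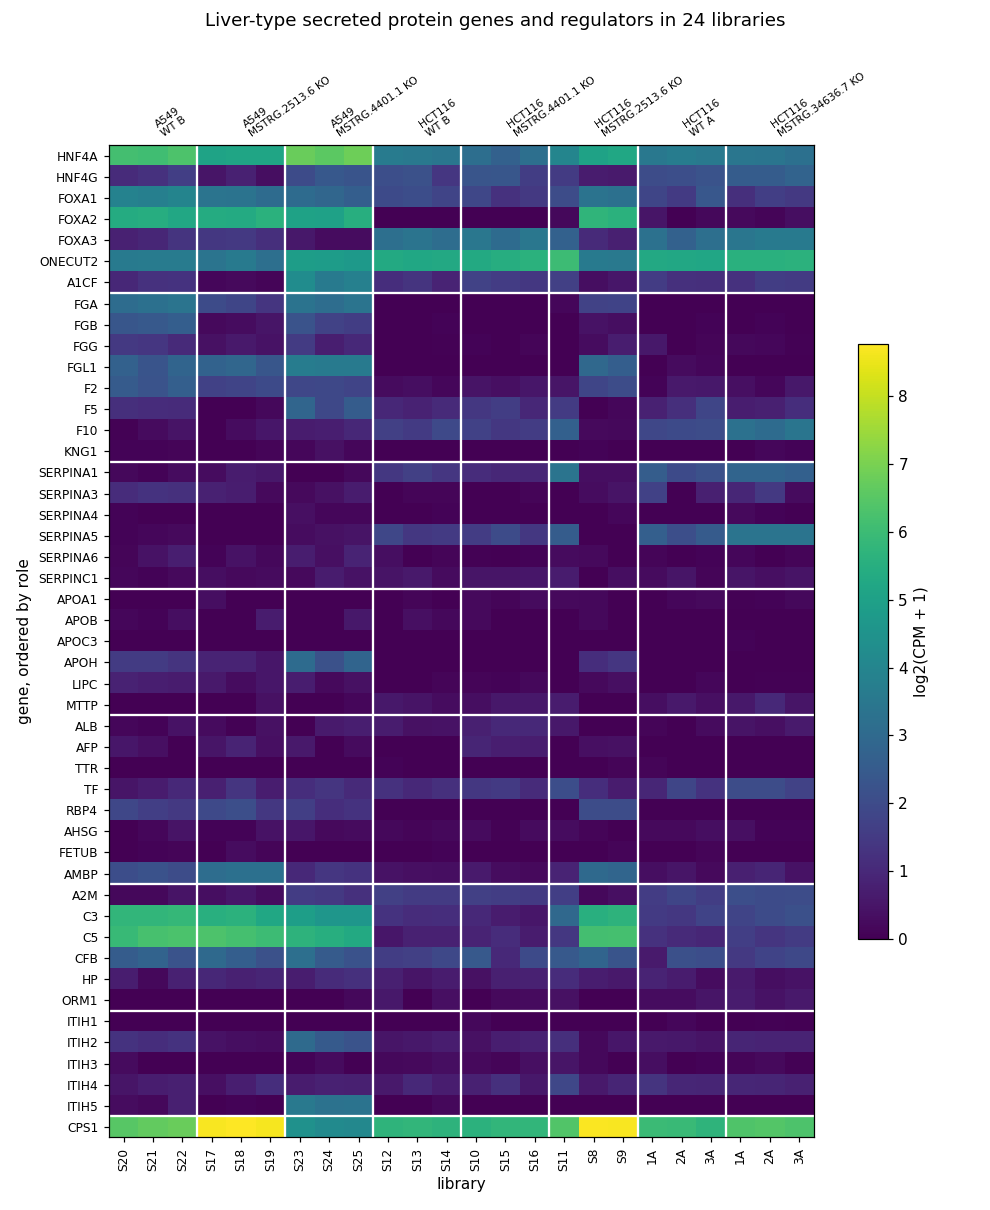
Heat map of log2(CPM + 1) for the 47 genes (rows, ordered by role, white lines between roles) in 24 libraries (columns, named by library, 8 groups of 3 between white lines). S8 and S9, among the HCT116 columns, carry the bright FOXA2 and C5 signal of the A549 columns and the CPS1 level of A549 MSTRG.2513.6 KO.

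Between the wild-type lines, the regulators and their secreted products differed in both directions. HNF4A was at 70.4, 67.1 and 79.3 CPM in A549 WT B and at 11.4, 10.7 and 9.88 CPM in HCT116 WT B, a log2(fold change) of 3.02 (SE 0.09, Benjamini-Hochberg adjusted p = 2.42e-07 by the quasi-likelihood test of edgeR). The pioneer factor FOXA2 was at 40.7, 43.2 and 37.2 CPM in A549 and at 0 counts in the 3 HCT116 WT B libraries, at least 787-fold higher against 3 counts in each library. The ranges of both regulators lay far apart. Of 27882 genes tested, 6658 had all A549 WT B libraries above HCT116 WT B, and 11745 had them all below. FOXA1 was higher in A549 as well (log2(fold change) 2.51, SE 0.15, edgeR adjusted p = 6.33e-06), at 13.7, 12.8 and 14.4 CPM against 2.96, 3.16 and 2.48 CPM. FOXA3 and ONECUT2 had the opposite order. FOXA3 was at 0.730, 0.925 and 1.49 CPM in A549 and 8.30, 9.37 and 7.80 CPM in HCT116 (log2(fold change) -2.78, SE 0.25, edgeR adjusted p = 5.67e-05). ONECUT2 was at 11, 11.5 and 11.7 CPM against 39.2, 36.1 and 37.8 CPM (-1.47, SE 0.07, edgeR adjusted p = 2.93e-06). HNF4G, at 1.14, 1.4 and 2.07 CPM against 3.36, 3.57 and 1.65 CPM, overlapped between the lines and was not called (edgeR adjusted p = 0.145).

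Of the 47 members, 34 passed the filter on low counts in this comparison. A member that passed only through the line where it is high had to differ, and the A549 WT B libraries are also the control of the contrasts that chose the list, so the counts are descriptive. Besides A1CF and A2M, 32 members were tested. At FDR < 0.1 and |log2(fold change)| > 1, 18 were higher in A549, where 17.2% of all tested genes were, and 7 were lower, where 18.5% of all were. The median log2(fold change) of the 34 was 1.5, also with the 6 genes at 0 in 1 line set to their bound, and that of all tested genes was -0.02. The fibrinogen chains were higher in A549. FGA was at 7.61, 8.34 and 9.36 CPM and at 0 in HCT116 WT B, at least 164-fold higher. FGB was at 4.09, 4.51 and 5.17 CPM, against 0, 0 and 0.0665 CPM. FGG had 242 counts against 2, a ratio of 134 (95% interval of the counts 36.6 to 1110). Their relative FGL1, a hepatokine, was at least 101-fold higher, RBP4, the retinol carrier, at least 42.5-fold, and APOH, which binds phospholipid, at least 33.9-fold. Complement C3 (log2(fold change) 5.67, SE 0.11) and C5 (6.99, SE 0.20), prothrombin F2 (4.85, SE 0.35), the antiprotease SERPINA3 (4.51, SE 0.45), hepatic lipase LIPC (4.52, SE 0.75) and AMBP, the precursor of the ITI light chain (3.73, SE 0.22), were higher in A549 too. ITIH2 (1.66, SE 0.27), CFB (1.35, SE 0.24) and CPS1, the entry enzyme of the urea cycle (1.20, SE 0.06), completed the higher members. Higher in HCT116 were the serpins SERPINA5 (-4.04, SE 0.42), SERPINA1 (-3.48, SE 0.41) and SERPINC1 (-1.45, SE 0.55), coagulation factor F10 (-3.26, SE 0.59) and MTTP, which was at 0 in A549 and at least 6.33-fold lower there. Of the genes that chose the list, A1CF was at 0.968, 1.38 and 1.44 CPM in A549 WT B and 1.22, 1.51 and 0.848 CPM in HCT116 WT B. A2M, the broad protease inhibitor, was at 0.136, 0.135 and 0.385 CPM against 2.16, 1.85 and 1.90 CPM, and ITIH5 at 0.221, 0.135 and 0.722 CPM against 0, 0 and 0.133 CPM. Tested and not called were HNF4G, F5, SERPINA6, ALB, TF, HP and ITIH4. With HCT116 WT A as the control, SERPINA3, CFB and CPS1 were not called, and the SERPINC1 call was lost under DESeq2 and without A549 WT B library S20 or S21 or HCT116 WT B library S12 or S13.

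Other genes of the network differed between the lines in the same mixed way. Of 23 other regulators tested, 10 were higher in A549 and 4 lower. Of the called genes whose mean log2 CPM reached 1, the 4 largest were GATA4, at 2.60 to 4.89 CPM in A549 WT B and at 0 counts in HCT116 WT B, and ONECUT3 (log2(fold change) -9.78), ESRP1 (-9.23) and ESRP2 (-5.17). Of 18 other complement genes 8 were higher and 1 lower, VTN (7.22), C1S (4.52) and C1R (3.60) among those higher. Of 17 hepatic enzyme and surface genes tested 6 were higher and 4 lower, among them HGD (5.80) and BAAT (3.89) higher and NAGS (-2.72) lower, with TM4SF4 at 16.3 to 19.6 CPM in A549 WT B and at 0 counts in HCT116 WT B. Of 18 other clotting genes 5 were higher and 4 lower, of 15 other acute phase and carrier genes 4 and 3, of 17 other lipoprotein genes 6 and 2, of 9 hyaluronan and ITI partners 3 and 1, and of 4 APOB editing partners 1 (RBM47, 1.22) and 0. APOBEC1, the editing enzyme, was at 0 counts in all 24 libraries.

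In A549, both KOs were compared with the same WT B libraries, so the control is shared and the comparisons are not independent. For MSTRG.2513.6 KO, 33 members passed the filter and 11 were called, 2 higher (1.13% of all tested genes were called higher) and 9 lower (1.79% of all). For MSTRG.4401.1 KO, 32 passed and 16 were called, 10 higher (11.1% of all) and 6 lower (4.32% of all). All MSTRG.2513.6 KO libraries lay above WT B for 5 of 33 members (2770 of all 25666 genes tested) and below it for 14 (3099 of all). All MSTRG.4401.1 KO libraries lay above WT B for 12 of 32 members (6984 of all 24979) and below it for 9 (4996 of all). Since the list was chosen partly on these contrasts, nothing is read from these counts. The A549 MSTRG.4401.1 KO libraries also had totals of 25799359 to 33205007 counts against 41563496 to 59466012 for WT B. Their mitochondrial share was 6.10% ± 2.30 (SD, n = 3) against 2.11% ± 0.22. Their lung-marker sum was 1074 to 1490 CPM against 2344 to 2445 CPM, with KRT7 at the top of the list in both. Under MSTRG.2513.6 KO that sum was 1551 to 2302 CPM. In MSTRG.4401.1 KO, KRT7 was not called (-0.97, SE 0.16). Of 4 lung markers tested there, 1 was called higher and 0 lower, with a median log2(fold change) of 0.59. The colon-marker sum was 48.6 to 65.1 CPM against 26.6 to 36.0 CPM in WT B. Of 5 colon markers tested, 1 was called higher (VIL1, 1.47) and 1 lower (CDX2, -3.43). The part of these differences in the values below was not tested. For MSTRG.4401.1 KO the median of all tested genes lay at 0.12 with TMM normalization and at 0.28 with upper-quartile normalization, and with the latter 3872 of all genes were called higher and 789 lower, in place of 2764 and 1078.

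HNF4A (chromosome 20, 44355699 to 44432845, GRCh38) was at 33.3, 34.7 and 34.9 CPM when MSTRG.2513.6 was targeted in A549 and at 107, 94.6 and 113 CPM when MSTRG.4401.1 was, with 70.4, 67.1 and 79.3 CPM in WT B between them. The 3 groups did not overlap, and the log2(fold change) was -1.08 (SE 0.10) and 0.46 (SE 0.11). HNF4G was at 0.407, 0.751 and 0.257 CPM in MSTRG.2513.6 KO and at 3.01, 4.38 and 3.81 CPM in MSTRG.4401.1 KO, on either side of the 1.14 to 2.07 CPM of WT B (-1.66, SE 0.43, and 1.22, SE 0.28). FOXA1 was lower in both, at 9.44, 9.12 and 7.47 CPM and at 7.44, 6.40 and 5.11 CPM, below 12.8 to 14.4 CPM in WT B, and passed the fold threshold in MSTRG.4401.1 KO (-0.65, SE 0.16, and -1.19, SE 0.17). FOXA2 stayed at 40.5 to 48.1 CPM and 31.8 to 44.6 CPM and overlapped with WT B in both. FOXA3 was at 1.69, 1.75 and 1.28 CPM in MSTRG.2513.6 KO, which overlapped with WT B, and at 0.482, 0.233 and 0.229 CPM in MSTRG.4401.1 KO, which did not (0.61, SE 0.31, and -1.77, SE 0.45). ONECUT2 was at 9.36, 11.3 and 8.24 CPM, overlapping with WT B, and at 28.4, 27.7 and 26 CPM, above it (-0.24, SE 0.17, and 1.18, SE 0.11). In MSTRG.2513.6 KO, HNF4A, HNF4G and FOXA1 were thus below WT B. In MSTRG.4401.1 KO, HNF4A, HNF4G and ONECUT2 were above it and FOXA1 and FOXA3 below it.

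A1CF was at 0.125, 0.157 and 0.0856 CPM in MSTRG.2513.6 KO, at 18.1, 11 and 13 CPM in MSTRG.4401.1 KO and at 0.968, 1.38 and 1.44 CPM in WT B. No groups overlapped, and the log2(fold change) was -3.31 (SE 0.37) and 3.40 (SE 0.25). A1CF lies on chromosome 10 (50799409 to 50885675, GRCh38, minus strand), 1.56 Mb from a sequence that the methods of the study give as deleted in A549; the labels do not say which KO line carries that deletion. Its exons overlap ASAH2B on the other strand, and whether the counting used the strand is not stated in the sources used here. A2M, whose exons overlap A2M-AS1 on the other strand, was at 0.250, 0.437 and 0.214 CPM in MSTRG.2513.6 KO and 1.93, 1.74 and 1.33 CPM in MSTRG.4401.1 KO, against 0.135 to 0.385 CPM in WT B (0.52, SE 0.59, and 2.90, SE 0.46). It overlapped with WT B in the former and lay above it in the latter.

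**Figure D2:**
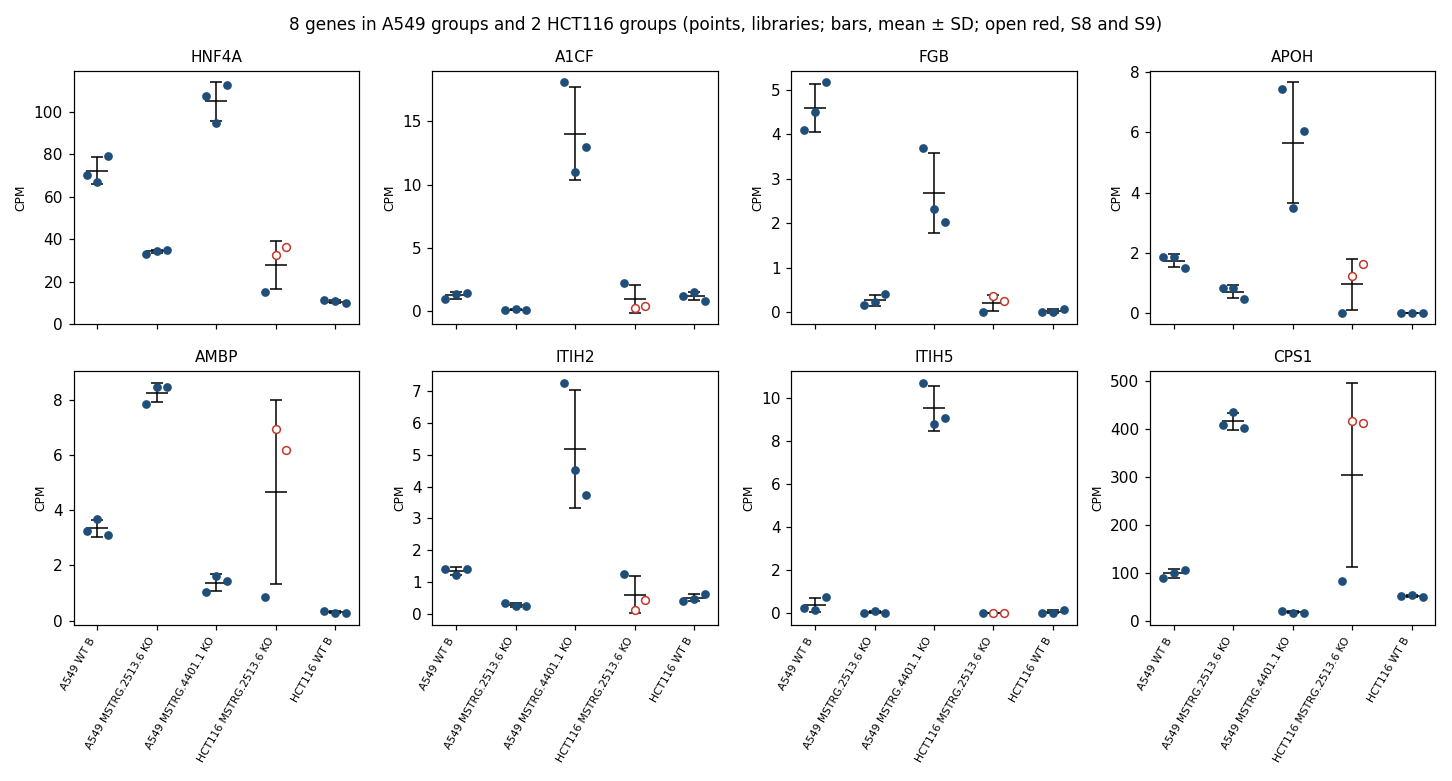
CPM of 8 genes in the 3 A549 groups and 2 HCT116 groups, WT B and MSTRG.2513.6 KO (points, libraries; bars, mean ± SD; open red points, S8 and S9). HNF4A and A1CF are lowest in A549 MSTRG.2513.6 KO and highest in A549 MSTRG.4401.1 KO among the A549 groups, CPS1 and AMBP have the opposite order, and the open points lie at the levels of A549 MSTRG.2513.6 KO.

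FGB, the beta chain of fibrinogen, was at 0.157, 0.227 and 0.407 CPM in MSTRG.2513.6 KO, at 3.70, 2.33 and 2.02 CPM in MSTRG.4401.1 KO and at 4.09, 4.51 and 5.17 CPM in WT B (log2(fold change) -4.15, SE 0.33, and -0.85, SE 0.25). It was below WT B in both, and the KOs did not overlap. FGA was at 3.02, 2.53 and 1.54 CPM and at 9.25, 7.83 and 9.30 CPM, against 7.61 to 9.36 CPM in WT B (-1.82, SE 0.27, and -0.01, SE 0.16). FGG was at 0.329, 0.524 and 0.342 CPM and at 1.87, 0.659 and 1.03 CPM, against 1.06 to 1.75 CPM in WT B (-1.89, SE 0.35, and -0.40, SE 0.42). All 3 chains, which lie within 1 cluster on chromosome 4 (10.3 kb between FGB and FGA and 13.4 kb between FGA and FGG), were below WT B in MSTRG.2513.6 KO without overlap. Factor V, F5, was at 0, 0 and 0.15 CPM in MSTRG.2513.6 KO, at 6.29, 2.75 and 4.80 CPM in MSTRG.4401.1 KO and at 1.13 to 1.26 CPM in WT B (-4.71, SE 0.92, and 1.87, SE 0.32). F2 was lower than WT B in both without reaching the fold threshold (-0.85, SE 0.20, and -0.87, SE 0.21). FGL1 was at 5.71, 6.43 and 4.04 CPM and at 12, 10.9 and 11.2 CPM, against 3.87 to 6.01 CPM in WT B (0.07, SE 0.26, and 1.06, SE 0.20). F10 was below 1 CPM in all A549 libraries. It was at 0.602, 0.659 and 0.991 CPM in MSTRG.4401.1 KO, above the 0.0340 to 0.385 CPM of WT B. Its call as higher there was kept under 3 of 10 alternative settings.

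ITIH2, a heavy chain that is transferred to hyaluronan, was at 0.344, 0.245 and 0.235 CPM in MSTRG.2513.6 KO, at 7.26, 4.54 and 3.74 CPM in MSTRG.4401.1 KO and at 1.21 to 1.43 CPM in WT B (-2.28, SE 0.31, and 1.85, SE 0.28). ITIH5 was at 0, 0.0699 and 0 CPM in MSTRG.2513.6 KO, where it did not pass the filter, at 10.7, 8.80 and 9.07 CPM in MSTRG.4401.1 KO and at 0.135 to 0.722 CPM in WT B (4.73, SE 0.49, in MSTRG.4401.1 KO). ITIH2 and ITIH5 are neighbours on chromosome 10, 36.3 kb apart. AMBP, the precursor of the ITI light chain, had the opposite order to ITIH2 and ITIH5. It was at 7.84, 8.45 and 8.45 CPM in MSTRG.2513.6 KO, 1.02, 1.63 and 1.45 CPM in MSTRG.4401.1 KO and 3.1 to 3.68 CPM in WT B (1.30, SE 0.16, and -1.37, SE 0.27). APOH was at 0.830, 0.821 and 0.449 CPM and at 7.44, 3.49 and 6.06 CPM, against 1.49 to 1.87 CPM (-1.30, SE 0.32, and 1.61, SE 0.30). ITIH2, APOH and AMBP overlapped with WT B in neither KO. ITIH5 did not either, but rests on 0 to 4 counts in each MSTRG.2513.6 KO library. RBP4, CFB and ITIH4 overlapped with WT B in both KOs.

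Complement and CPS1 stood at higher levels. C3 was at 45.3, 48.5 and 36.1 CPM in MSTRG.2513.6 KO and at 29.6, 23.3 and 23.2 CPM in MSTRG.4401.1 KO, against 53.8, 54.1 and 55.8 CPM in WT B (-0.33, SE 0.14, and -1.19, SE 0.11). C5 was at 78.9, 71.6 and 63.3 CPM and at 50.5, 44.5 and 39.0 CPM, against 59.2, 73.6 and 77.1 CPM (0.03, SE 0.13, and -0.72, SE 0.12). Both complement components lay below WT B in MSTRG.4401.1 KO. The acute phase serpin SERPINA3 was at 0.751, 0.629 and 0.171 CPM and at 0.181, 0.310 and 0.572 CPM, against 1.19 to 1.45 CPM (-1.31, SE 0.48, and -1.98, SE 0.45). CPS1 (chromosome 2, 210477682 to 210679107) was at 408, 437 and 403 CPM in MSTRG.2513.6 KO, at 20.4, 17.3 and 15.9 CPM in MSTRG.4401.1 KO and at 89.5, 99.96 and 107 CPM in WT B, with no overlap (2.08, SE 0.10, and -2.55, SE 0.11). CPS1 and AMBP thus stood in the opposite order to HNF4A, A1CF, APOH and ITIH2 across the 3 groups.

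**Figure D3:**
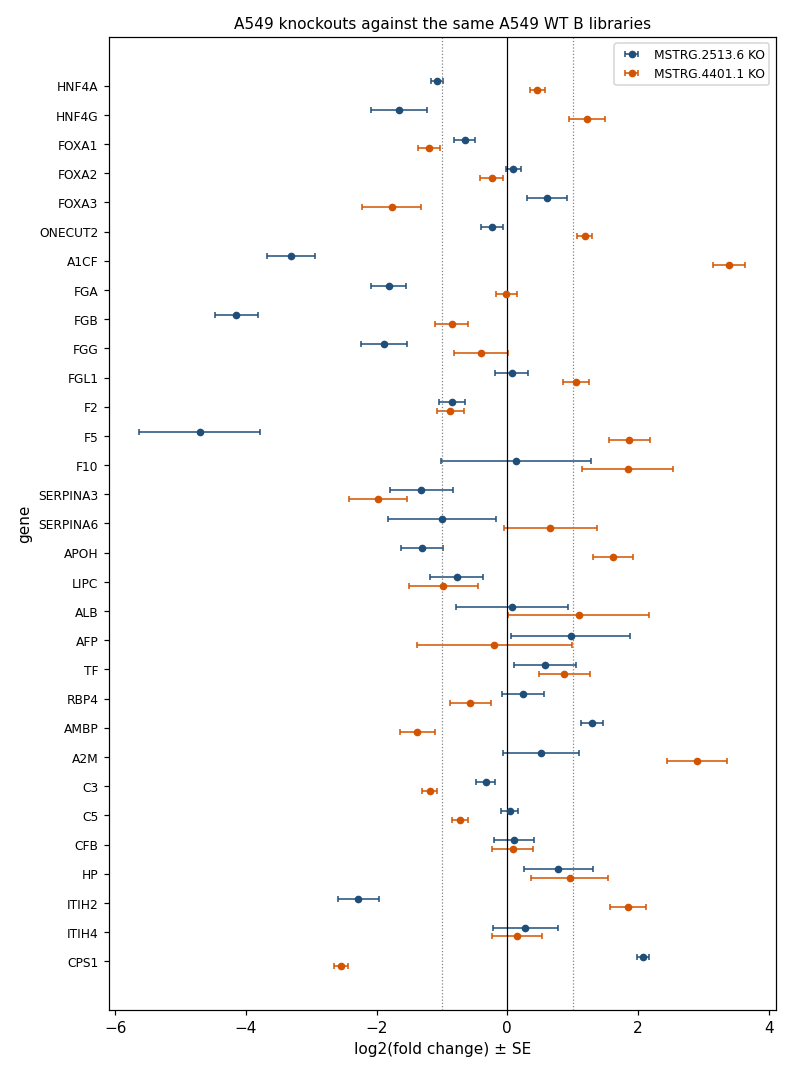
Log2(fold change) ± SE of the 31 members tested in both A549 KOs, against the same A549 WT B libraries (blue, MSTRG.2513.6 KO; orange, MSTRG.4401.1 KO; dotted lines, the fold threshold). A1CF lies at -3.31 and 3.40 and CPS1 at 2.08 and -2.55; the control is shared.

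Among the other regulators, ONECUT1 was at 0.813 to 1.5 CPM and 12.5 to 14 CPM in the KOs of MSTRG.2513.6 and MSTRG.4401.1, against 2.71 to 3.13 CPM in WT B (-1.29, SE 0.28, and 2.10, SE 0.17). PPARGC1A, a coactivator of HNF4A, was at 0 counts in the 3 MSTRG.2513.6 KO libraries, at 10.6 to 15.9 CPM in MSTRG.4401.1 KO and at 1.5 to 1.72 CPM in WT B. NR5A2 was lower in both, at 16.5 to 24.4 CPM and 18.1 to 25.7 CPM against 41.9 to 52.3 CPM. Of the other regulators, 4 of 20 tested were called lower and 0 higher in MSTRG.2513.6 KO, and 5 of 22 higher and 1 lower in MSTRG.4401.1 KO, including CEBPD (1.19). Of the hepatic enzymes and surface genes, 4 of 14 were lower in MSTRG.2513.6 KO, among them BAAT (-2.48), HGD (-1.90) and TM4SF4 (-1.68), and 6 of 14 higher in MSTRG.4401.1 KO, among them HGD (1.28), TM4SF4 (1.25) and SLCO1B1 (1.13). Of 19 other complement genes, 2 were higher (C1R, 1.34, and C1S, 1.26) and 1 lower in MSTRG.2513.6 KO, and 4 were higher, CFD (1.26) among them, and 3 lower, CD59 (-1.62) and C1R (-1.01) among them, in MSTRG.4401.1 KO. Ceruloplasmin, CP, was at 6.31 to 8.61 CPM and 55.3 to 64.4 CPM, against 13.5 to 22 CPM (-1.27, SE 0.20, and 1.73, SE 0.15). CP was the only 1 of 13 other acute phase and carrier genes called in MSTRG.2513.6 KO; in MSTRG.4401.1 KO 2 of 15 were higher and 2 lower (STAT3, -1.38, and SOCS3, -1.17). Of the hyaluronan and ITI partners, the synthases HAS2 (0 to 0.271 CPM, against 8.37 to 12.5 CPM in WT B) and HAS3 (-1.79) were among 3 of 7 lower in MSTRG.4401.1 KO, with 1 higher, and HAS2 (-1.04) among 3 of 8 lower in MSTRG.2513.6 KO, with 1 higher. Other clotting genes were called in MSTRG.4401.1 KO, 1 higher (F7, 2.80) and 3 lower of 18, THBD (-3.72) among them, and 0 of 17 in MSTRG.2513.6 KO. Of other lipoprotein genes, 0 of 16 were called in MSTRG.2513.6 KO and 1 of 15 in MSTRG.4401.1 KO, ABCA1 (-4.55). No APOB editing partner was called in either (0 of 4).

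In HCT116 MSTRG.4401.1 KO, the albumin genes ALB and AFP were higher than in WT B. Of 26 members tested, 2 were called, both higher, where 0.996% of all tested genes were called higher. AFP, the fetal albumin, was at 0.891, 0.656 and 0.620 CPM in the KO and at 0 counts in all 6 HCT116 wild-type libraries and in the 3 MSTRG.34636.7 KO libraries. Against 3 counts in each WT B library it was at least 14.1-fold higher. AFP passed the filter on low counts only through the KO libraries, so it had to differ, and its call is a description. ALB was at 0.717, 1.01 and 0.992 CPM against 0.572, 0.312 and 0.333 CPM in WT B (log2(fold change) 1.15, SE 0.33, edgeR adjusted p = 0.0697). ALB and AFP lie 9.66 kb apart on chromosome 4, and neither overlapped between KO and WT B, though both stayed near 1 CPM or below. All KO libraries lay above WT B for 5 of the 26 members (4310 of all 26615 genes tested) and below it for 3 (4045 of all). The ALB call was lost when S15, S16, S13 or S14 was left out and with no filter on low counts. HNF4A was at 8.02, 5.67 and 8.24 CPM against 11.4, 10.7 and 9.88 CPM, below WT B without overlap, and passed the FDR threshold without the fold threshold (-0.56, SE 0.16, edgeR adjusted p = 0.0644). SERPINA1, the inhibitor of neutrophil elastase, was at 1.16, 0.985 and 0.909 CPM against 1.68, 2.18 and 1.60 CPM (-0.85, SE 0.22, edgeR adjusted p = 0.0519). A1CF was at 2.32, 1.92 and 1.67 CPM against 1.22, 1.51 and 0.848 CPM, a difference that did not pass (0.71, SE 0.27, edgeR adjusted p = 0.141), A2M at 2.19, 2.04 and 1.80 CPM against 2.16, 1.85 and 1.90 CPM, and ITIH5 at 0 counts in the KO. CPS1 differed by -0.01 (SE 0.06). The median over the 26 was 0.15, and 0.00 over all genes. Outside the members, HAS3 fell (-2.06, SE 0.19, edgeR adjusted p = 0.00081), 1 of the hepatic enzyme and surface genes and 1 of the other clotting genes were lower, and the other 5 lists of liver genes held no call. Of the lung markers, 1 of 5 tested, KRT7, was lower (-2.42, SE 0.25), and the sum of the 10 was 9.48 to 10.8 CPM against 20.5 to 29.0 CPM in WT B; its part in these values was not tested. With HCT116 WT A as the control, AFP and ALB stayed higher and SERPINA1, SERPINA5 and C3 were called lower. These were 5 of 26 members tested. With that control, 1273 of 26786 genes tested were called higher and 1470 lower.

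In HCT116 MSTRG.34636.7 KO, F10 and SERPINA5 rose. Of 28 members tested against WT A, these 2 were called higher, where 0.729% of all tested genes were. F10 (chromosome 13, 113122799 to 113149529), which converts prothrombin to thrombin, was at 8.75, 7.34 and 9.54 CPM in the KO and 2.69, 2.93 and 3.13 CPM in WT A (log2(fold change) 1.54, SE 0.21, edgeR adjusted p = 0.0205). SERPINA5 (chromosome 14, 94561442 to 94593118), the protein C inhibitor, was at 9.44, 9.34 and 9.49 CPM against 5.24, 3.34 and 4.75 CPM (1.07, SE 0.23, edgeR adjusted p = 0.0867). Neither overlapped with WT A. F10 was also above the 1.79 to 2.81 CPM of WT B and every other HCT116 library. The F10 call was lost without KO library 1A or 3A, and that of SERPINA5 without any 1 KO library, without WT A library 2A or 3A, and with no filter on low counts. SERPINA5 shares exon sequence with SERPINA4 on the same strand in the annotation, so strand cannot separate their reads, and F10 overlaps a gene on the other strand, from which its reads cannot be told apart without strand. Of the 28, the KO libraries all lay above WT A for 12 (HNF4G, FOXA3, ONECUT2, F10, SERPINA1, SERPINA5, ALB, A2M, C3, C5, ITIH2 and CPS1), where 13.3% of all tested genes did, and all below it for 1 (HNF4A), where 10.1% did. The median log2(fold change) of the 28 was 0.53, against -0.02 over all genes. HNF4A was at 9.85, 9.55 and 8.54 CPM against 10.4, 12 and 10.6 CPM (-0.24, SE 0.16, edgeR adjusted p = 0.507). CPS1 was at 81.8, 84.2 and 78.5 CPM against 62.5, 61.1 and 51.4 CPM (0.48, SE 0.12, edgeR adjusted p = 0.119). Of the genes that chose the list, A1CF was at 1.36, 2.03 and 1.90 CPM against 1.92, 1.32 and 1.27 CPM (0.22, SE 0.29, edgeR adjusted p = 0.761), A2M at 3.35, 3.05 and 3.11 CPM against 1.96, 2.55 and 1.99 CPM (0.55, SE 0.21, edgeR adjusted p = 0.272) and ITIH5 at 0 in all 6 libraries. Among the 119 other liver genes tested none was called by edgeR.

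The serpins also differed between the wild types. SERPINA1 was at 5.06, 2.91 and 3.53 CPM in WT A against 1.68, 2.18 and 1.60 CPM in WT B (1.06, SE 0.28, edgeR adjusted p = 0.0607), and SERPINA5 at 5.24, 3.34 and 4.75 CPM against 2.69, 1.67 and 1.80 CPM (1.12, SE 0.28, edgeR adjusted p = 0.0511). The groups did not overlap, and both members were higher in WT A. These were the 2 of 25 members called, both higher, where 3.16% of all tested genes were. All WT A libraries lay above WT B for 4 of the 25 (3960 of all 27280 genes tested) and below it for 1 (4417 of all). The SERPINA5 difference between the wild types was as large as that between MSTRG.34636.7 KO and WT A, while F10 differed by 0.37 (SE 0.24, edgeR adjusted p = 0.428) between the wild types. SERPINA1 was no longer called without WT A library 1A or without any WT B library, nor SERPINA5 without WT A library 1A or 3A or WT B library S13 or S14. With WT B as its control, MSTRG.34636.7 KO had 8 of 26 members called, all higher: F10, SERPINA1, SERPINA3, SERPINA5, TF, AMBP, C3 and C5. With that control, 2151 of 27971 genes tested were called higher. Outside the members, CEBPB (1.21), CD55 (1.10), LIPG (1.18) and MIA2 (1.15) were higher and VKORC1 (-1.37) lower in WT A, among 5 higher and 1 lower of 109 tested.

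**Figure D4:**
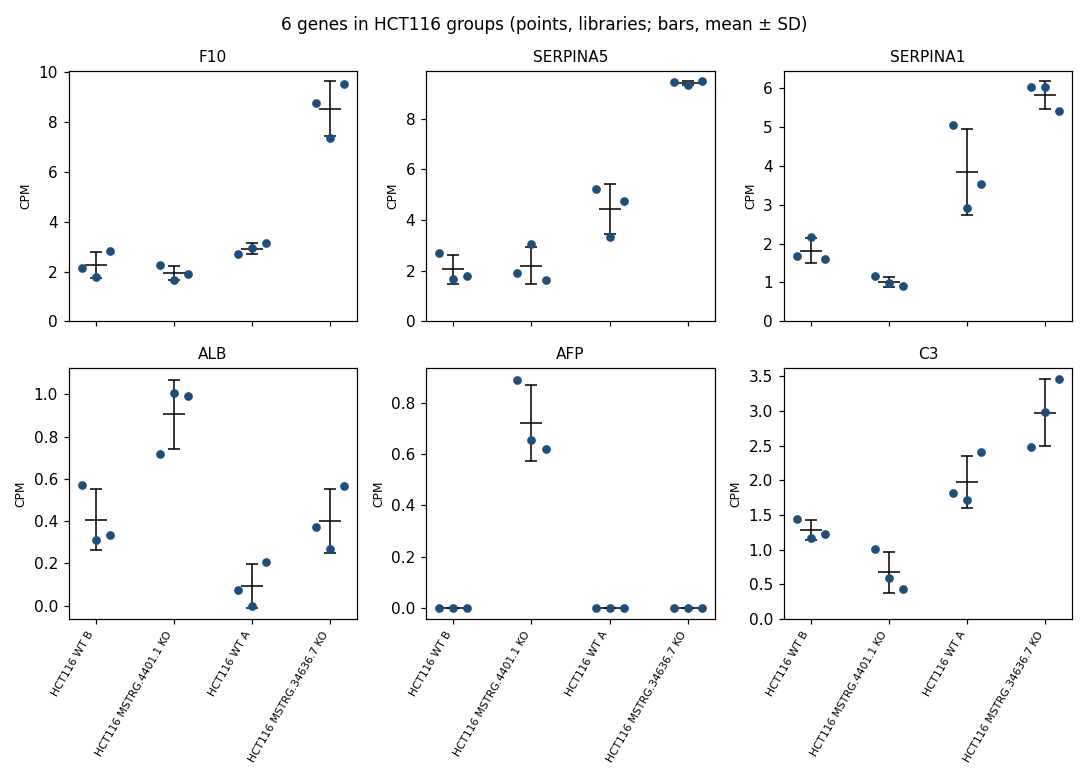
CPM of 6 genes in 4 HCT116 groups (points, libraries; bars, mean ± SD). F10 and SERPINA5 are highest in MSTRG.34636.7 KO, SERPINA1 and SERPINA5 are higher in WT A than in WT B, and AFP is at 0 outside MSTRG.4401.1 KO.

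For HCT116 MSTRG.2513.6 KO the result depended on S8 and S9. With all 3 libraries, 0 of 25 members were called by edgeR, where 0.933% of all tested genes were. An unadjusted edgeR p under 0.05 was found for 10 of the 25 and for 5456 of all 26374 genes tested. DESeq2, run without that filter on low counts, called 14 of 45 members and 3594 of 43581 genes. C3 differed by 5.04 (SE 0.90, edgeR adjusted p = 0.101), C5 by 6.53 (SE 1.51), AMBP by 4.25 (SE 0.92) and CPS1 by 2.86 (SE 0.71). FOXA2 was at 52.1 and 47.6 CPM in S8 and S9 and at 0.138 CPM in S11. Without S8 and S9, S11 alone was set against WT B, and its variation was assumed to be like that of WT B. Of 29 members tested, 9 were then called, all higher, where 5.20% of all tested genes were called higher. C3 was at 6.82 CPM in S11 (95% exact binomial interval of the counts 6.00 to 7.73), against 1.45, 1.17 and 1.23 CPM in WT B (2.33, SE 0.22, edgeR adjusted p = 0.0021). SERPINA1 was at 9.46 CPM (8.49 to 10.5) against 1.68, 2.18 and 1.60 CPM (2.29, SE 0.24, edgeR adjusted p = 0.0030). Both were above every other HCT116 library except, for C3, S8 and S9. ITIH4, an acute phase ITI chain, was at 2.61 CPM (2.11 to 3.20) against 0.515, 1.01 and 0.632 CPM (1.76, SE 0.43, edgeR adjusted p = 0.0377), and TF, the iron carrier transferrin, at 3.22 CPM (2.66 to 3.86) against 1.39, 0.997 and 1.33 CPM (1.29, SE 0.28, edgeR adjusted p = 0.0275). AMBP (1.41, SE 0.48), C5 (1.26, SE 0.42), ITIH2 (1.21, SE 0.41), F10 (1.18, SE 0.29) and SERPINA5 (1.17, SE 0.31) were the others called. HNF4A was at 15 CPM in S11, against 32.5 and 36.2 CPM in S8 and S9 and 9.88 to 11.4 CPM in WT B (0.41, SE 0.14, edgeR adjusted p = 0.103, for S11). ONECUT2 was at 63.5 CPM, above all other libraries (0.67, SE 0.07, edgeR adjusted p = 0.0027), and A1CF at 2.2 CPM (0.79, SE 0.38, edgeR adjusted p = 0.215). Set against WT A in place of WT B, C3 in S11 differed by less (1.66, SE 0.43). The other calls made against WT B were not kept with that control. The intervals cover counting error only.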

How the data were processed

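Total RNA was depleted of ribosomal RNA, made into strand-specific libraries and sequenced. The authors aligned reads to hg38 with HISAT2 2.2.1 after Trim Galore 0.6.6 and FastQC 0.11.9 (versions per the submitters' processing notes), ran StringTie and edgeR, and deposited 1 file of raw counts for each library, neither normalized nor pooled. Counts are also given here as CPM, relative to the library's total. The annotation release and the use of strand in counting are not given in the sources used here. 60641 symbols are listed in all 24 libraries; 3 listed in some were left out.

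Each comparison was fitted separately over all genes with edgeR 4.0.16 in R 4.3.3 (limma 3.58.1): TMM, filterByExpr, glmQLFit and glmQLFTest. Calls needed a Benjamini-Hochberg FDR < 0.1 and |log2(fold change)| > 1, the thresholds of the study. SE is the absolute log2(fold change) divided by the square root of F. Genes at 0 in a group got a bound against 3 counts in each library, and single values a 95% exact binomial interval. The fits were checked on simulated counts. Positions and exon lengths came from GENCODE 44, to which all 47 members were matched; promoters came from RefSeq. Exons of 19 members overlap another gene, 12 of them on the other strand. ORM1, HP, A2M and the serpins have close relatives among which reads may be split.

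The members, the 8 lists of other liver genes and the 3 lists of markers were chosen with earlier results of these data known. Values were named by rule: per library for A1CF, A2M, ITIH5, the other regulators, members called in HCT116 and members of at least 10 CPM in a group; other members by range; and from each list up to 4 called genes with the largest |log2(fold change)| and an average log2 CPM of at least 1. Other genes named were chosen after their values were seen. The alternatives were RLE and upper-quartile normalization, DESeq2 1.42.0, no filter, at least 10 counts in each library, each library left out, the other HCT116 wild type, the replicate number as a block, and S8 and S9 left out. S11 against WT A was added after seeing the data. Some genes of these lists are not reported here by name.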

Additional observations from a re-analysis of the deposited data

Results flagged for a closer look

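Some members lay above wild type in every KO library of 1 cell line and below it in every KO library of the other. The difference between the lines was not tested, and the A549 values belong to contrasts that chose the list. Under MSTRG.4401.1 KO, HNF4A differed by 0.46 on the log2 scale in A549 and by -0.56 in HCT116, and F2 by -0.87 in A549 and 0.96 in HCT116, where F2 was at 0.281 to 0.454 CPM in the KO. Under MSTRG.2513.6 KO, HNF4A differed by -1.08 in A549 and 1.65 in HCT116, F2 by -0.85 and 3.74, C3 by -0.33 and 5.04, and FGA by -1.82 in A549, with FGA at 0 in HCT116 WT B and not tested there. The HCT116 values of MSTRG.2513.6 KO include S8 and S9, which lie at A549 levels. In S11 alone HNF4A differed by 0.41, F2 by 1.06 and C3 by 2.33, and FGA was at 0.11 CPM. The check for an outlying library was not applied, since each group has 3 libraries.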

How the results depend on the processing

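The count of members called moved by over 1.5 times under the following settings, and the cause was not tested unless the setting itself leaves fewer genes or libraries. In HCT116 MSTRG.4401.1 KO it was 2, with 1 under DESeq2 (where AFP got no adjusted p), no filter and the minimum of 10 counts, 5 against WT A, and 1 to 3 with a library left out. In MSTRG.34636.7 KO it was 2, with 1 under no filter, 8 against WT B, and 0 to 2 with a library left out. In HCT116 MSTRG.2513.6 KO it was 0, with 1 under upper-quartile normalization, 14 under DESeq2, 6 under the minimum of 10 counts, 2 against WT A, 9 without S8 and S9, 1 without them against WT A, and 0 to 28 with a library left out, the 28 without S11. Without S11, 28 of 34 members tested in that KO were called, and so were 10636 of all 28577 genes tested. Under the minimum of 10 counts, 6 of 15 members tested there were called, and 975 of all 19809 genes. The rise in these counts was thus not limited to the members. Between WT A and WT B the count of members called was 2, with 0 to 3 when a library was left out. Between the lines it was 26, with 10 of 15 tested under the minimum of 10 counts. In A549 MSTRG.2513.6 KO it was 11, with 7 to 10 when a library was left out (7 without WT B library S20 or S21). For the A549 KO of MSTRG.4401.1 the count stayed within that factor, at 16, with 11 under the minimum of 10 counts and 14 to 17 otherwise. No called member changed direction in any setting. Between the lines 22 of 26 kept their call throughout; in HCT116 AFP did in every setting that gave it an adjusted p, and ALB, F10, SERPINA5 and SERPINA1 did not.

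The labels do not say whether equal replicate numbers pair the libraries. Same-numbered libraries of MSTRG.34636.7 KO and WT A deviated together with r of 0.009, 0.03 and 0.06, though each correlated best with its own number. Between the wild types r ranged from -0.07 to 0.01, and between the lines from -0.16 to -0.01. With 3 libraries in each group, these correlations cannot decide whether the libraries are paired. With the replicate number as a block the count was 1 in place of 2 in MSTRG.34636.7 KO (SERPINA5 lost), 1 in place of 2 between the wild types (SERPINA1 lost) and 25 in place of 26 between the lines (SERPINC1 lost). No paired analysis was possible for the other comparisons because their libraries share no numbers.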
